A study of Glycine max with 5 samples.

Results

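Pseudouridine (Ψ) is an isomer of uridine made in place in RNA by Ψ synthases, and each synthase picks its uridines either through a guide RNA or from the bases and folds around them. The best known sequence rule is that of yeast PUS7, whose sites read UNUAR with the modified U as the third letter. In messenger RNA the bases beside a site are therefore the first thing used to sort sites into groups. The group described here is the set of Ψ sites in soybean shoots that lie between a U and a G, written TΨG in DNA letters. They were chosen from the list of 1347 Ψ sites by sequence alone, as those with T before and G after the site in the 21-nucleotide window that the list gives, and 229 sites, 17.0% of the list (95% Wilson interval 15.1 to 19.1%), qualified. The rule used no measured value.

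The RNA came from shoots of soybean Williams 82 (genotype W82 in the labels) and was poly(A)-selected. It was measured by BID-seq, in which bisulfite forms an adduct on Ψ that makes reverse transcriptase skip the base, so that a Ψ is read as a gap. There were 3 treated libraries, which received bisulfite, and 2 input libraries, which did not, all of the same tissue and genotype, and nothing in the labels says whether they came from separate plants. For each site the list gives the reads covering it, the gap ratio (gapped reads over reads) and the Ψ fraction, which is the gap ratio after conversion with a calibration curve for the surrounding bases. These are single values combined over replicates, so there was no spread between libraries to test against. Sites are not replicates of a condition, and the intervals given here cover counting error or the spread between sites only. The list says nothing about the untreated libraries, so the background gap level was not analysed here.

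A uridine skipped within a run of U gives the same read whichever of the U was skipped. All 229 TΨG sites lie in a run of at least 2 U by construction, and the listed position is the last U of its run. In the whole list 480 sites had U before them and 27 sites had U after them, so the last U was the usual position given for a run. Which U of a run carried the modification cannot be told from these data, and in what follows "the site" is the listed U.

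The windows below show what the 229 sites had in common. The first 4 are from the largest family, which shares an 8-base word (capitals) around the site, here the second T of the word. The first of them is the deepest, the next has the same 21 bases on chromosomes 1 and 2, and the last 2 are from chromosome 3 and were chosen after their values were seen, because they lie 3579 nucleotides apart.
chromosome 11, position 7541215, minus strand: ttttgttGGTTGTAGttgagt
chromosome 1, position 27019138, minus strand: attcaggGGTTGTAGgcaagg
chromosome 3, position 35802415, plus strand: gttttacGGTTGTAGacggtt
chromosome 3, position 35805994, plus strand: gttttacGGTTGTAGacattg
The next 3 are from the family with C on both sides of the triplet, with CTTGC in capitals, and are among the deepest of that family.
chromosome 5, position 686919, plus strand: aaaattggCTTGCctgcaaag
chromosome 11, position 33582076, minus strand: ggaagcagCTTGCaaccaagg
chromosome 15, position 21579366, plus strand: gactcaggCTTGCagactggt
The next 2, with only the triplet TTG in capitals, are the deepest site of all and the site with the highest Ψ fraction among those with at least 200 reads. The last 2, with the whole run of U and the G after it in capitals, are the deepest and the shallowest of the 8 sites with a run of 10 U.
chromosome 20, position 38056205, minus strand: aggcgaaggTTGtggtgagct
chromosome 5, position 10693961, plus strand: gacaaattgTTGccagggcta
chromosome 1, position 48483907, plus strand: gTTTTTTTTTTGttataatac
chromosome 10, position 38876974, plus strand: gTTTTTTTTTTGgttatgatg

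The base 2 positions before the site was G at 127 of the 229 TΨG sites (55.5%, 49.0 to 61.8%). U stood there at 49 sites, C at 42 and A at 11. For comparison, the windows also held 360 U in the same UUG context that were not listed as Ψ, which may be unmodified or may have missed the filter of the list. Of these, 27.8% (23.4 to 32.6%) had G at that place, and U had 24.2%. G was thus more frequent there in listed than in unlisted UUG, and the intervals did not overlap. Among the other listed sites preceded by U, 39.8% had G there, and among all 1118 other listed sites 57.3% did. Without the 68 sites of the 8-base word, G stood there at 59 of 161 TΨG sites (36.6%, 29.6 to 44.3%), an interval that overlaps those of unlisted UUG and of other sites preceded by U. The word itself has G at that place, so that leaving out its sites lowers the share by construction. The 36.6% that remained was still above the 27.8% of unlisted UUG, and overlapping intervals do not show that the excess was gone.

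The base 2 positions after the site was U at 130 TΨG sites (56.8%, 50.3 to 63.0%), C at 65, G at 19 and A at 15. At unlisted UUG the order was different, with G first at 39.4% and U at 28.1%. All other listed sites had U there at 41.7%, and those preceded by U had it at 27.1%. Without the word, U stood there at 62 of 161 TΨG sites (38.5%, 31.3 to 46.2%) and C at 65 (40.4%). G after the triplet stood at 8.30% of TΨG sites (5.38 to 12.6%), against 39.4% of unlisted UUG (34.5 to 44.6%).

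As 5-base motifs, the sites were concentrated in a few of the possible contexts. GTTGT held 104 of 229 sites (45.4%, 39.1 to 51.9%), against 27 of the 360 unlisted UUG (7.50%). CTTGC held 29 sites (12.7%), against 3.06% of unlisted UUG. TTTGC followed with 19 sites, TTTGT with 15 and GTTGC with 14. The motif GTTGG went the other way, with 8 TΨG sites (3.49%), against 40 unlisted UUG (11.1%). Motifs that begin with 3 U differed in depth: TTTGC had a median of 246 reads and a median gap ratio of 7.32%, whereas TTTGT had a median of 13 reads and a median gap ratio of 57.1%, with 8 of its 15 sites in runs of at least 4 U, and TTTGG had a median of 12 reads and 66.7%, with 5 of 7 in such runs.

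Beyond these bases the flanks carried a pattern only from 3 positions before to 4 positions after the site. G stood 3 positions before the site at 59.4% of TΨG sites, A stood 3 positions after it at 50.2%, and G stood 4 positions after it at 56.8%. Outside that stretch no position held as much as 0.10 bits of information, on a scale where a position with a single base holds 2. The G and C content of the 16 bases outside the central 5 had a median of 50.0% (quartiles 37.5 and 56.2%) in TΨG sites, against 50.0% (43.8 and 62.5%) in the other listed sites. These shares move in steps of 1 base in 16, and the quartiles were lower in TΨG sites.

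**Figure D1:**
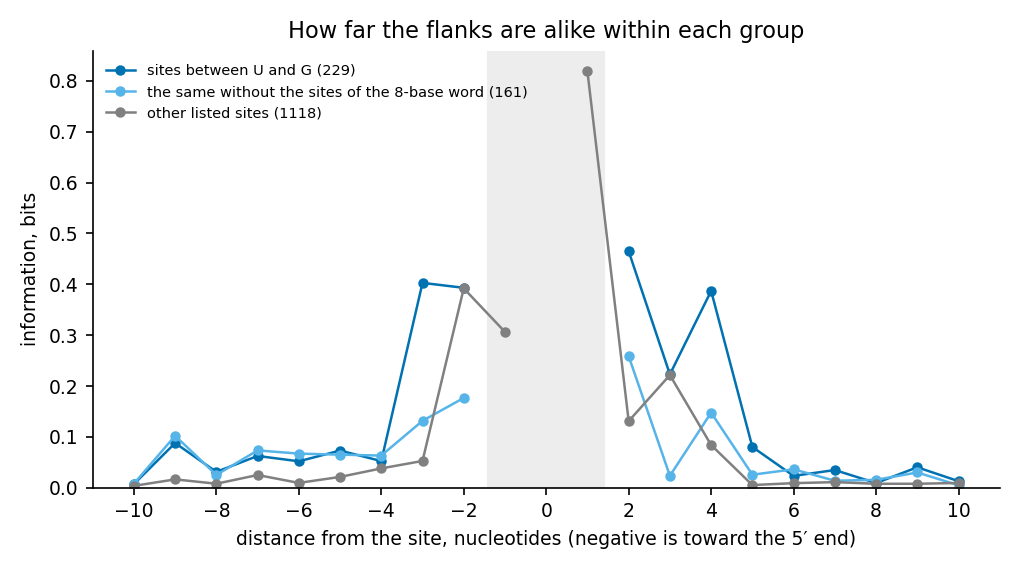
Information at each position, in bits, against the distance from the site in nucleotides, for the 229 TΨG sites, for the 161 of them without the 8-base word and for the 1118 other listed sites. The positions fixed by the choice of sites are left out for each group, and the grey band marks the triplet. The TΨG sites stand above the other listed sites at 3 positions before and at 2 and 4 positions after the site, and these heights of 0.40, 0.47 and 0.39 bits become 0.13, 0.26 and 0.15 bits without the 68 sites with the word.

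Much of this pattern came from a single word. GGTTGTAG, with the site at its second T, was found at 68 of 229 TΨG sites (29.7%, 24.2 to 35.9%). The word was singled out after the windows were seen. It was looked for on the strand of the RNA and in reverse complement in all 1347 windows, where it was present in 5.05% and its reverse complement in none. None of the 1118 other windows held it anywhere (which allows a share of up to 0.268%), and none of the 281 unlisted UUG with room for it did (up to 1.07%). Within the listed windows the word thus occurred only with a listed site at its second T, which describes these windows and not the transcriptome.

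The bases next to the word varied. Before it stood T at 23 sites, A at 18, G at 17 and C at 10, while after it stood A at 33, G at 24, C at 6 and T at 5. A purine therefore followed the word at most of its sites. A close relative of the word, GGTTGTGG, was rarer and was found at 14 sites. GTTGTAG without regard to the base before it was found at 74 sites, which include the 68 with the word. The letters TNTAA or TNTAG began at the site in 79 TΨG sites (34.5%), against 34 of 1118 other listed sites (3.04%). The word contains TGTAG, so its 68 sites are among the 79. With the site as the third letter, as in the sites of yeast PUS7, these letters need A after the site, so that no TΨG site can hold them. A match of letters is a description and names no synthase.

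In the CTTGC family, 10 of the 29 sites read GCTTGCA and 8 read GGCTTGC at that place. This family also had a pattern further out. C stood 6 positions after the site at 18 of the 29 (62.1%, 44.0 to 77.3%), against 29.3% of all 229 TΨG sites. G stood 4 positions before it at 17 of the 29 (58.6%, 40.7 to 74.5%), against 31.9%. These 2 positions were picked after the values were seen, and some of the 29 windows are copies of each other. With C before the triplet, the run of U had a length of 2 at all 29 by construction. All of them had at least 72 reads, so that this family held none of the shallow sites.

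A TΨG site was covered by between 5 and 8438 reads, with a median of 360 (95% interval from order statistics, 309 to 474), against a median of 422 (386 to 485) for the other listed sites. The gapped reads had a median of 27 and a minimum of 4. The gap ratio had a median of 7.04% (6.52 to 7.41%), against 6.79% (6.48 to 6.99%) for the other listed sites. These overlap, so that the median gap ratio did not set the TΨG sites apart from the rest of the list. The Ψ fraction had a median of 21.7% (20.2 to 23.0%), against 24.6% (23.6 to 26.6%).

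High fractions were less frequent between U and G. The fraction was above 50% at 32 of 229 TΨG sites (14.0%, 10.1 to 19.1%), against 246 of 1118 other listed sites (22.0%, 19.7 to 24.5%), with 20.6% for the whole list. It was under 20% at 95 TΨG sites (41.5%, 35.3 to 48.0%), against 418 other listed sites (37.4%), with 38.1% for the whole list. The share of low fractions was near that of the list, whereas that of high fractions lay below it. A fraction of 100% was listed at 10 TΨG sites (4.37%, 2.39 to 7.85%) and 29 other sites (2.59%, 1.81 to 3.70%), with 2.90% for the whole list. Here the share was higher in TΨG sites, and the intervals overlap. Groups that share a neighbouring base with TΨG lay on either side of it. Sites between U and C had a median fraction of 40.2%, and GΨG sites had 15.7%.

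The depth of a site and its gap ratio moved together throughout the list. The lowest listed gap ratio fell with depth, and no TΨG site was listed with fewer than 4 gapped reads, so that a shallow site could be listed only with a high gap ratio. Of the 32 TΨG sites with 50 reads or fewer, 30 had a fraction above 50%, against 180 of 183 other listed sites. Over 50 and up to 200 reads it was 2 of 35 TΨG sites, against 47 of 170 other listed sites (27.6%, 21.5 to 34.8%). Above 200 reads it was none of 162 TΨG sites (up to 1.85%), against 19 of 765 other listed sites (2.48%). Every TΨG site with more than 200 reads thus had a listed fraction of 50% or less.

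**Figure D2:**
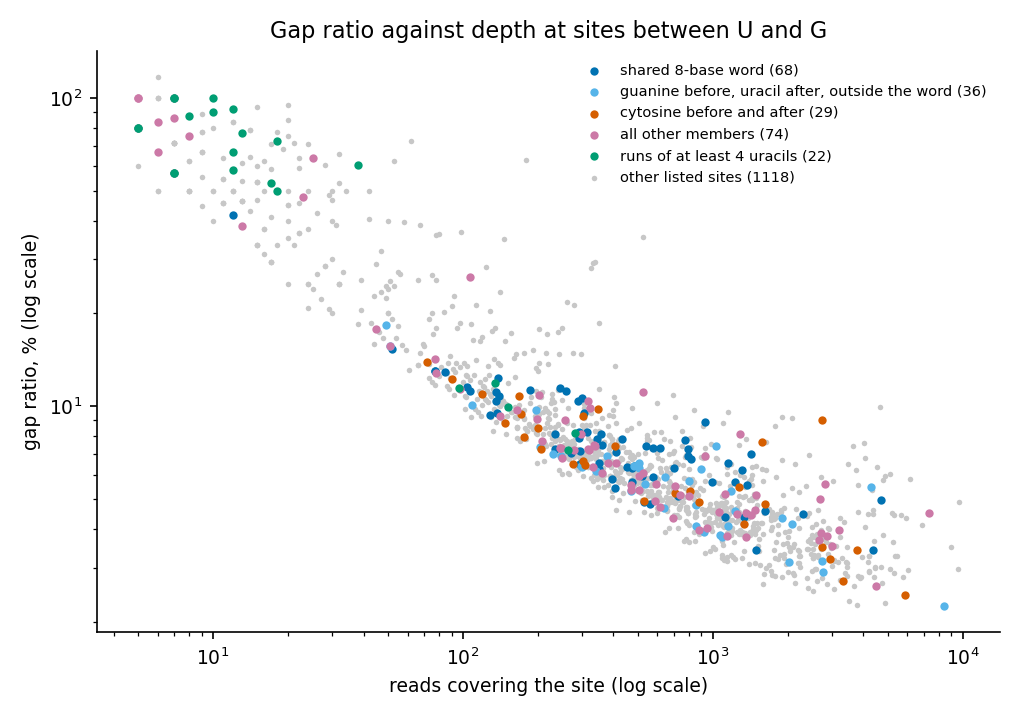
Gap ratio (%) against the reads covering the site, both on log scales, for the TΨG sites in colour by family and the 1118 other listed sites in grey. Gap ratios fall with depth in all families, and the sites in runs of at least 4 U sit mostly at the shallow end, with a median of 12 reads.

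Comparison within classes of depth gives a smaller and mixed picture. In the deepest class, above 1000 reads, gap ratios had a median of 4.41% (3.88 to 4.58%) at 54 TΨG sites, against 3.97% (3.86 to 4.15%) at 323 other listed sites. Over 500 and up to 1000 reads it was 5.60% at TΨG sites against 5.26% at the others, and over 200 and up to 500 reads it was 7.22% against 7.12%. Over 50 and up to 200 reads the order turned, with 11.2% against 12%. These 3 differences were small beside the spread between sites. In the class of 20 reads or fewer it was 80.0% (58.3 to 90.0%) at 27 TΨG sites, against 62.5% (57.1 to 71.4%) at 129 other listed sites. Depth was not fully matched in the shallowest and deepest classes. TΨG sites had a median of 7 reads against 9 in the former, and 1598 against 1785 in the latter. The class over 20 and up to 50 reads held only 5 TΨG sites.

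Weighted by the number of TΨG sites in each class, the gap ratio was 2.56 points higher in TΨG than in other listed sites (approximate 95% interval 1.18 to 3.93), and higher in 5 of 6 classes. That difference came from the shallow classes: over the classes above 50 reads alone, an alternative added after the data were seen, it was 0.087 points. The Ψ fraction differed by -1.71 points (-3.13 to -0.29), TΨG minus other, and was higher in 1 of 6 classes. Against sites between U and C the fraction differed by -10.7 points (-13.5 to -7.97), while the gap ratio differed by 1.86 points (-0.22 to 3.93), an interval that includes 0. Against GΨG sites the fraction was 4.08 points higher (1.72 to 6.44), and higher in 6 of 6 classes. The gap ratio differed by 2.93 points from that of GΨG sites (-0.27 to 6.13). The fraction of TΨG sites thus lay between those of these 2 groups.

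**Figure D3:**
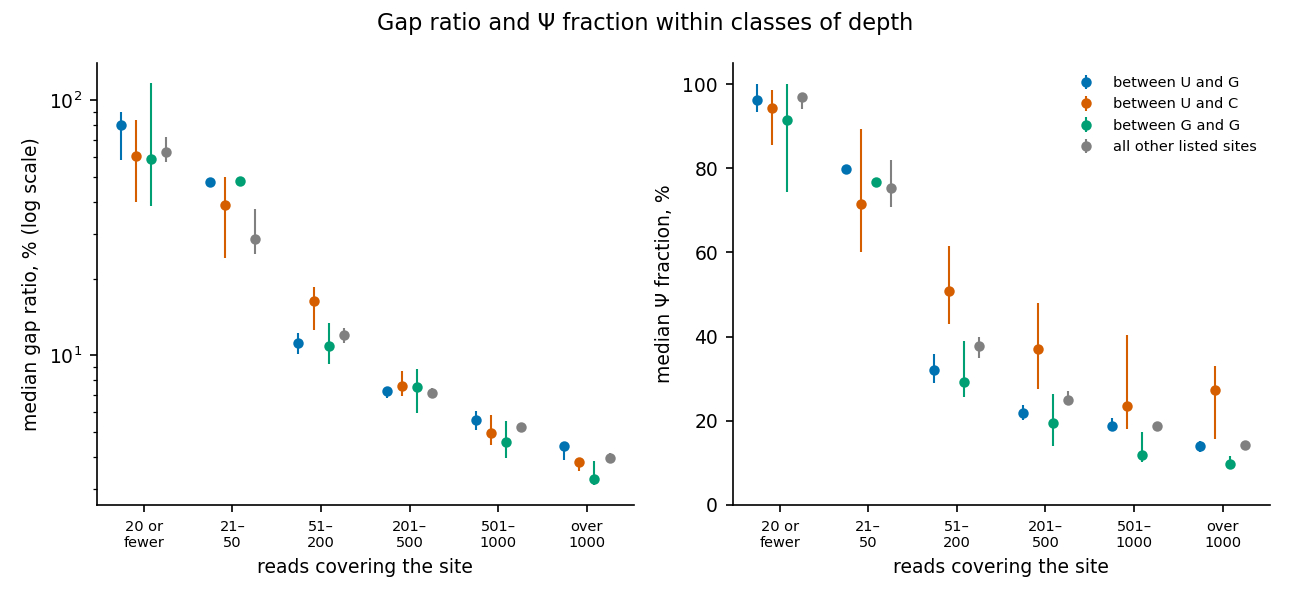
Median gap ratio (%, log scale, left panel) and median Ψ fraction (%, right panel) in 6 classes of reads covering the site, for sites between U and G, between U and C, between G and G and for all other listed sites. Bars are order-statistic 95% intervals, not drawn where a class has too few sites. Above 50 reads the TΨG fractions sit below those of sites between U and C, with 32.1% for TΨG against 50.9% over 50 and up to 200 reads.

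The curves can be read from the list itself, because every site carries both measures. In each of the 13 TΨG motifs with at least 3 sites, a higher gap ratio never came with a lower fraction, so that the sites of a motif lay on a single curve. Read off at a gap ratio of 5%, the curve gave a fraction of 10.8% for CTTGC, 16.0% for GTTGT, 17.4% for GTTGG and 22.5% for GTTGC. For ATTGC, with only 3 sites, it gave 23.1%. The same share of gapped reads was thus listed as a fraction more than 2 times as large in GTTGC as in CTTGC. The deepest sites of CTTGC and GTTGT show the curves at low gap ratios. The deepest CTTGC site, on chromosome 5 at position 686919, had 143 gapped of 5852 reads, a gap ratio of 2.44% (2.08 to 2.87%), and a fraction of 1.03%. The deepest TΨG site, a GTTGT site on chromosome 20 at position 38056205, had 190 gapped of 8438 reads, a gap ratio of 2.25% (1.96 to 2.59%), and a fraction of 7.47%.

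**Figure D4:**
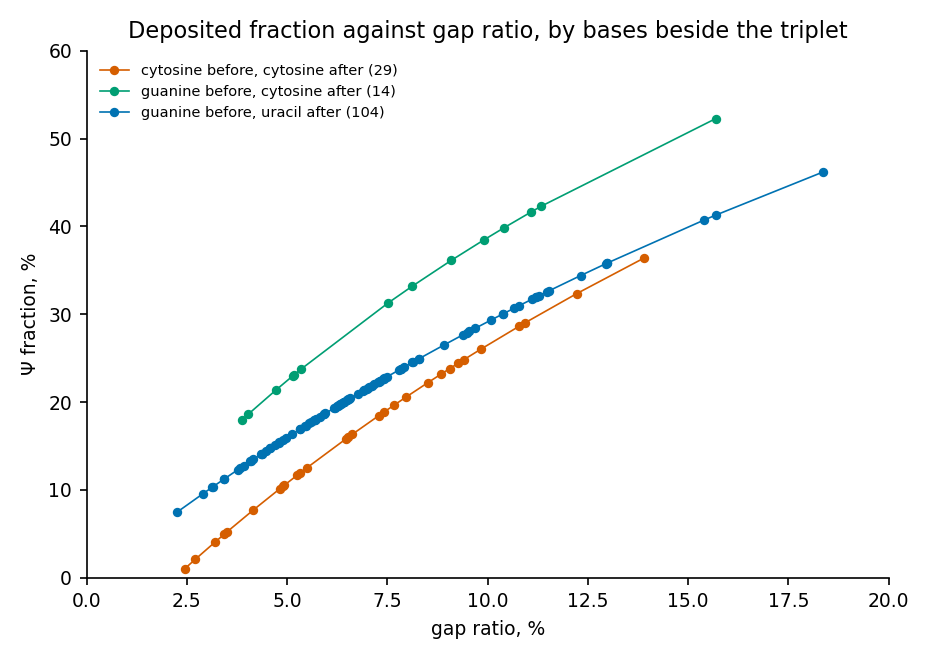
Ψ fraction (%) against gap ratio (%) up to 20%, for TΨG sites with C before and after the triplet (29), with G before and C after (14) and with G before and U after (104). Points are sites and lines join them in order. The 3 groups lie on separate curves, and at a gap ratio of 5% they read 10.8%, 22.5% and 16.0%.

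For CTTGC against GTTGT and for GTTGC against GTTGT, differences in fraction at matched depth had the order of the curves. CTTGC sites differed from GTTGT sites by -5.93 points in fraction (-8.73 to -3.14) and were lower in all 4 classes compared, whereas their gap ratio differed by -0.56 points (-1.49 to 0.36). Above 1000 reads the CTTGC sites were deeper, with a median of 2732.5 reads against 1423, so depth was not fully matched in that class. What part of the differences this accounts for was not tested. GTTGC sites had fractions 8.72 points above those of GTTGT sites (3.94 to 13.5), higher in 4 of 4 classes, with a gap ratio difference of 0.32 points (-1.33 to 1.98). In both pairs of motifs the interval of the gap ratio difference included 0. The pair TTTGC and GTTGT did not go with the curves, which lay close together, at 16.9% and 16.0% for a gap ratio of 5%. TTTGC sites were 14.3 points higher than GTTGT sites in gap ratio (7.76 to 20.8) and 9.80 points higher in fraction (7.56 to 12.1), and higher in 5 of 5 classes in both. With 20 reads or fewer there were 7 TTTGC sites against 1 GTTGT site, whose own spread the intervals cannot cover. Over the classes above 50 reads, an alternative added after the data were seen, the gap ratio differed by 0.25 points (-0.23 to 0.73) and the fraction by 1.88 points (0.49 to 3.27). The 5 highest fractions among TΨG sites with at least 200 reads were 41.7%, 39.9%, 38.5%, 33.2% and 32.6%, and the first 4 of these were GTTGC sites. How far the order of fractions between motifs reflects the calibration and how far the RNA was not tested.

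Sites with the word GGTTGTAG had a median of 400.5 reads (12 to 4715), a median gap ratio of 7.22% (3.42 to 41.7%) and a median fraction of 22.2% (11.2 to 75.5%). A single site of the 68 had a fraction above 50%, and it had 12 reads. Against the other TΨG sites in runs of 2 or 3 U, the gap ratio at matched depth differed by 0.01 points (-0.72 to 0.73). The fraction differed by 1.50 points (-0.45 to 3.44), and both intervals included 0. Sites with the word were higher in 4 of 5 classes in both measures. They were lower only with 20 reads or fewer, a class that held 1 site with the word. Its gap ratio of 41.7% pulled the weighted difference down, and the intervals cannot cover its own spread. Over 50 and up to 200 reads the gap ratio was 11.3% with the word against 10.8%, and over 200 and up to 500 reads 7.27% against 7.10%. In the 2 deepest classes, the medians stood further apart. Over 500 and up to 1000 reads the gap ratio was 6.76% (5.67 to 7.32%) at 15 sites with the word, against 5.29% (4.90 to 5.71%) at 28 other TΨG sites. With more than 1000 reads it was 4.77% (4.36 to 6.19%) at 12 sites with the word, against 4.15% (3.79 to 4.53%) at 42 others. These 2 classes were singled out after their values were seen, and the intervals overlap slightly in both. Above 1000 reads the sites with the word were also shallower, with a median of 1396.5 reads against 1950.5. Depth was thus not fully matched in that class.

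The deepest sites show how precise a gap ratio can be here. On chromosome 10 at position 47970636, 330 of 7319 reads were gapped (4.51%, 4.06 to 5.01%), with a fraction of 14.7%. On chromosome 11 at position 7541215, a site with the word, it was 234 of 4715 reads (4.96%, 4.38 to 5.62%), with a fraction of 15.9%. On chromosome 17 at position 23721461 it was 118 of 4510 reads (2.62%, 2.19 to 3.12%), with a fraction of 7.51%. The 5 sites with the most reads fell into 2 groups whose intervals do not overlap, near 2 to 3% and near 4 to 5%. From 50 to under 200 reads the highest gap ratio was 26.2% (18.8 to 35.2%), with 28 of 107 reads, on chromosome 8 at position 34203653. The next highest at that depth were 15.7%, 15.7%, 15.4% and 14.3%, each from 8 to 11 gapped reads.

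The run of U ending at the site had 2 U at 180 TΨG sites (78.6%), 3 at 27 sites (11.8%) and at least 4 at 22 sites (9.61%, 6.43 to 14.1%). Long runs were less frequent than among the other listed sites preceded by U, of which 56 of 251 had at least 4 (22.3%, 17.6 to 27.9%). Among these, the sites between U and C had long runs at 32 of 200 (16.0%, 11.6 to 21.7%), an interval that overlaps that of the TΨG sites. The 22 sites in long runs were shallow, with a median of 12 reads (5 to 281), against 468 reads for the 207 sites in shorter runs. Their gap ratio had a median of 63.6%, against 6.57%, and their fraction was above 50% at 17 of 22 sites, against 15 of 207. Within classes of depth, however, the gap ratio of sites in long runs differed from that of the others by 0.21 points, with an interval of -14.2 to 14.6, too wide to place it. Long runs, shallow depth and high gap ratios moved together, and the part of each in the other was not tested.

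The 8 sites with a run of 10 U, the longest found, display this within a single context. They had 281, 263, 151, 134, 18, 12, 7 and 5 reads, with gap ratios of 8.19%, 7.22%, 9.93%, 11.9%, 50.0%, 66.7%, 57.1% and 80.0%. The 4 sites with more than 100 reads had gap ratios like those of TΨG sites of the same depth, and the 4 sites with fewer than 20 reads had gap ratios of at least 50.0%. The fractions ranged from 20.3% to 99.9% over these 8 windows.

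Some TΨG sites came in copies, about as often as in the rest of the list. Of the 229, 56 sites (24.5%, 19.3 to 30.4%) had a window within 3 mismatches of another TΨG site, in 30 pairs, against 241 of 1118 other listed sites with such a copy in the list (21.6%, 19.2 to 24.1%). An identical partner was found for 40 TΨG sites (17.5%, 13.1 to 22.9%), in 20 pairs, against 151 other listed sites (13.5%, 11.6 to 15.6%). All 20 identical pairs joined different chromosomes, with 4 pairs between chromosomes 5 and 8 and 3 between chromosomes 10 and 20. The soybean genome went through a whole-genome duplication and keeps many genes in duplicate. The word GGTTGTAG was in 7 of the identical pairs and CTTGC in 6.

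Both copies of a window gave similar values. The gap ratio intervals of the identical copies overlapped in 20 of 20 pairs, with a median difference of 0.63 points and a largest one of 2.90 points, and the deeper copy had a median of 1.13 times the reads of the shallower. On chromosomes 11 (33582076) and 18 (1092234) the shared CTTGC window had 3327 and 3763 reads, gap ratios of 2.71% and 3.43%, and fractions of 2.09% and 4.96%. On chromosomes 15 (21579366) and 9 (11469669) it was 2943 and 2724 reads, 3.19% and 3.49%, and 4.04% and 5.19%. On chromosomes 16 (4260769) and 19 (35817702) a GTTGG window had 2807 and 2693 reads, 5.59% and 5.01%, and 19.2% and 17.4%. Whether reads that match both copies were counted at each was not tested, so the copies may not be separate measurements.

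**Figure D5:**
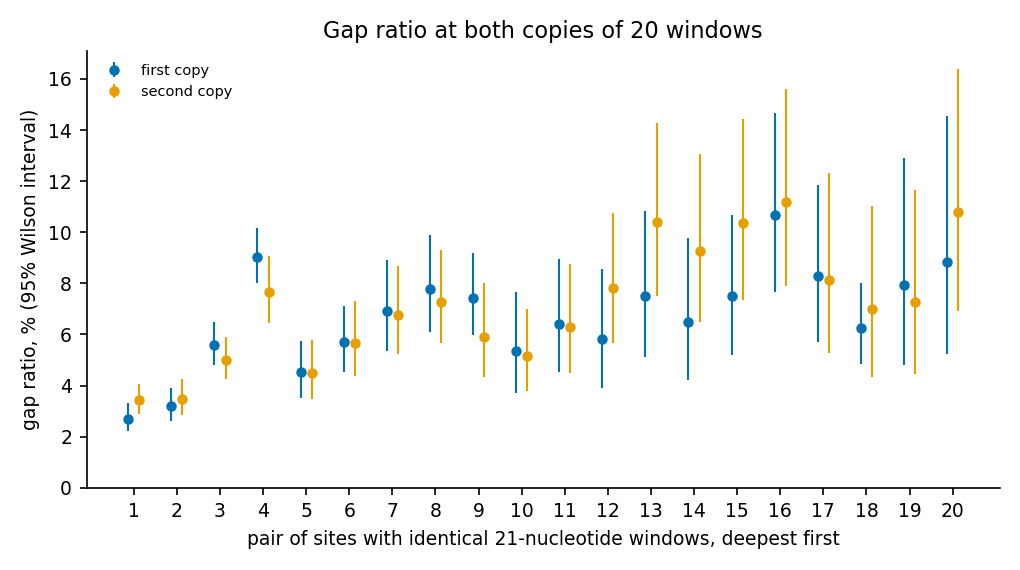
Gap ratio (%) at both copies of each of the 20 windows found at 2 TΨG sites, ordered by the reads of the shallower copy, deepest first. Bars are 95% Wilson intervals of the gapped reads. The intervals overlap in 20 of 20 pairs.

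A set of 4 sites with the word lay as pairs of sites on chromosomes 3 and 19. On chromosome 3 they had 75 of 1149 reads gapped (6.53%) at position 35802415 and 58 of 797 (7.28%) at 35805994. On chromosome 19 they had 83 of 932 reads gapped (8.91%) at 40595215 and 60 of 770 (7.79%) at 40598969. The word was the same at all 4 and the bases around it differed by up to 3 mismatches between the pairs joined.

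In 3 of the 30 pairs the intervals did not overlap. On chromosome 17 the sites at 3124834 and 3125062, with 2 mismatches, had gap ratios of 6.89% and 3.77%. On chromosomes 2 (1684113) and 8 (10182026), with 1 mismatch, they were 9.83% and 5.48%. On chromosomes 15 (15137725) and 18 (11665325), with 3 mismatches, the first read GGTTGTGG and had 17 of 246 reads gapped (6.91%), and the second read GGTTGTAG and had 5 of 12 (41.7%). These pairs were chosen for their difference, which is given as a description, and the last rests on a site of 12 reads.

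The TΨG sites were spread over all 20 chromosomes, with 113 on the plus and 116 on the minus strand. They made up 25 of the 97 listed sites on chromosome 8 (25.8%, 18.1 to 35.3%), 20 of 75 on chromosome 2 and 19 of 71 on chromosome 4, but 5 of 54 on chromosome 12 and 6 of 70 on chromosome 19. The interval for chromosome 8 nearly reached the 17.0% of the whole list, and these chromosomes were picked as extremes among 20. No TΨG site had another listed site on its strand within 5 nucleotides, 3 had one within 100 nucleotides and 22 within 1000, so that nearly all stood alone in their stretch of sequence. Genes, exons and codon positions of the sites were not analysed here.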

How the data were processed

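The authors aligned BID-seq reads to soybean genome Glycine_max_v2.1, pooled replicates by summing reads with and without a gap, and kept sites by a P value-based filter; aligner versions and thresholds are not given in the sources used here. The deposited list holds counts of reads, the gap ratio and the calibrated Ψ fraction, printed here as percent. Gapped reads, recovered as gap ratio times reads, were within 0.00282 of a whole number at 100% of sites. At 1 other listed site they exceeded the reads (7 to 6), so gapped reads may not be a strict subset of the reads as Wilson intervals assume. The deposited expression table, with 2 columns of values per sample, was not used. Python 3.11.15, pandas 2.3.3 and scipy 1.17.1 were used. Medians were compared in 6 depth classes weighted by TΨG sites, and the calculation was tested on simulated data. Members and lists were chosen with earlier results of these data known. Named sites were the 5 deepest, the 5 with the highest fraction at 200 reads or more, the 5 with the highest gap ratio from 50 to under 200 reads, the deepest of each of the 5 commonest motifs, those with the longest U run and the 3 deepest copied pairs. No p-value was computed.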

Additional observations from a re-analysis of the deposited data

How the results depend on the processing

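No paired analysis was possible because replicates were merged into 1 value per site; for the same reason no library could be left out in turn. Of 73 settings tried beside the values reported, 43 kept the value within its interval or, for counts of sites and pairs, within 1.5 times. Keeping sites with at least 50 reads gave a median depth of 8.92 (log2 reads, against 8.49), a median gap ratio of 6.48%, 1.02% of fractions above 50%, 12.2% of sites with U at 2 positions before the site, 2.54% in runs of at least 4 U and a matched gap ratio difference of 0.087 points. Keeping at least 200 reads gave a log2 depth of 9.20, a gap ratio of 6.08%, a median fraction of 19.3%, 0% above 50%, 12.3% with that U and 1.23% in such runs. Keeping fractions of at least 20% left 134 sites with a log2 depth of 7.65, 9.72% gap ratio, 28.7% fraction, 23.9% above 50% and 16.4% in such runs. Without runs of at least 4 U, 7.25% of fractions were above 50% and 13.04% had that U. The matched gap ratio difference was 0.89 points with depth deciles, 0.19 with the 51 other sites nearest in depth, 1.00 with means, 0.25 with no matching and 0.087 over classes above 50 reads. The matched fraction difference was -4.01 points with deciles, -3.95 with means, -10.7 against other sites preceded by U, -10.7 against sites between U and C and reversed to 4.08 against GΨG sites. The share of the word GGTTGTAG stayed between 29.2 and 34.0% in all 6 settings. Identical windows in place of near copies gave 20 pairs. The comparison sites of the last 2 fraction differences, the classes above 50 reads and the word were chosen after seeing the data.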
